A study of Mus musculus with 6 samples.

Results

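Inflammatory effector and cytokine genes and the enzymes that compete for arginine were followed in mouse cells put under osteoclast-inducing conditions. The 10 genes, chosen by name from 20938 in the table, were Il23a, Tnf, Il1b, Il6, Il10, Il1rn, Acod1, Nos2, Arg1 and Ptgs2. The choice was made with earlier results of these data known. RNA sequencing measured them in RAW264.7, a murine leukaemia-derived line of macrophage character from which bone-resorbing osteoclasts can be raised. In 3 samples the cells were given 8 µM neobavaisoflavone (NBIF), an isoflavone of plants, and in 3 samples the same volume of its solvent DMSO. All 6 samples were under osteoclast induction, with no uninduced sample among them, and the study asked how the compound inhibits osteoclast differentiation. The labels name bone marrow as the tissue and do not state whether the replicates are separate cultures, so the p-values reflect the spread of these samples alone, which may be technical.

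Activated macrophages secrete the cytokines TNF, IL-1 beta, IL-6 and IL-23, and they restrain inflammation with IL-10 and with the IL-1 receptor antagonist, the product of Il1rn. Inducible nitric oxide synthase (Nos2) and arginase (Arg1) use the same substrate, arginine, for nitric oxide or for ornithine, while Acod1 makes itaconate from a TCA cycle intermediate and Ptgs2 (cyclooxygenase) starts prostaglandin synthesis. In bone, TNF and IL-1 favour osteoclast formation and IL-10 opposes it.

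With NBIF, Il23a rose to 1.98 times its DMSO mean, Il1rn rose to 1.23 times, Acod1 fell to 0.290 times, and Nos2 was lower in each NBIF library at a level below 1 FPKM. Tnf did not pass the test. Ptgs2 and Il1b stayed under 1 FPKM in all 6 libraries, and Il10, Arg1 and Il6 were at or near 0. Values are FPKM (sequenced fragments per kilobase of gene, scaled to the total of the sample). A gene was tested where its mean over the 6 samples was at least 1 FPKM, by limma on log2(FPKM + 1), and it passed at an adjusted p under 0.05. Of the 10 members, 4 were tested and 6 lay below that level. Of the 4 tested, 2 rose, 1 fell and 1 did not pass. The 1 that fell, Acod1, reached the filter only through the DMSO libraries. Among all 9936 tested genes, 18.6% passed, 10.5% higher and 8.08% lower, that is 1047 and 803 genes, against 705 and 1003 after median-ratio scaling. In all 1850 genes passed; dropping NBIF 1 left 999, dropping DMSO 1 left 1173, and dropping NBIF 2 or NBIF 3 left 1150. The NBIF and DMSO values did not overlap for 4 of the 10 members, against 29.8% of all genes above 0 in a sample. Because the members were chosen with earlier results known, the shares of all genes are background and not a test of the members.

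**Figure D1:**
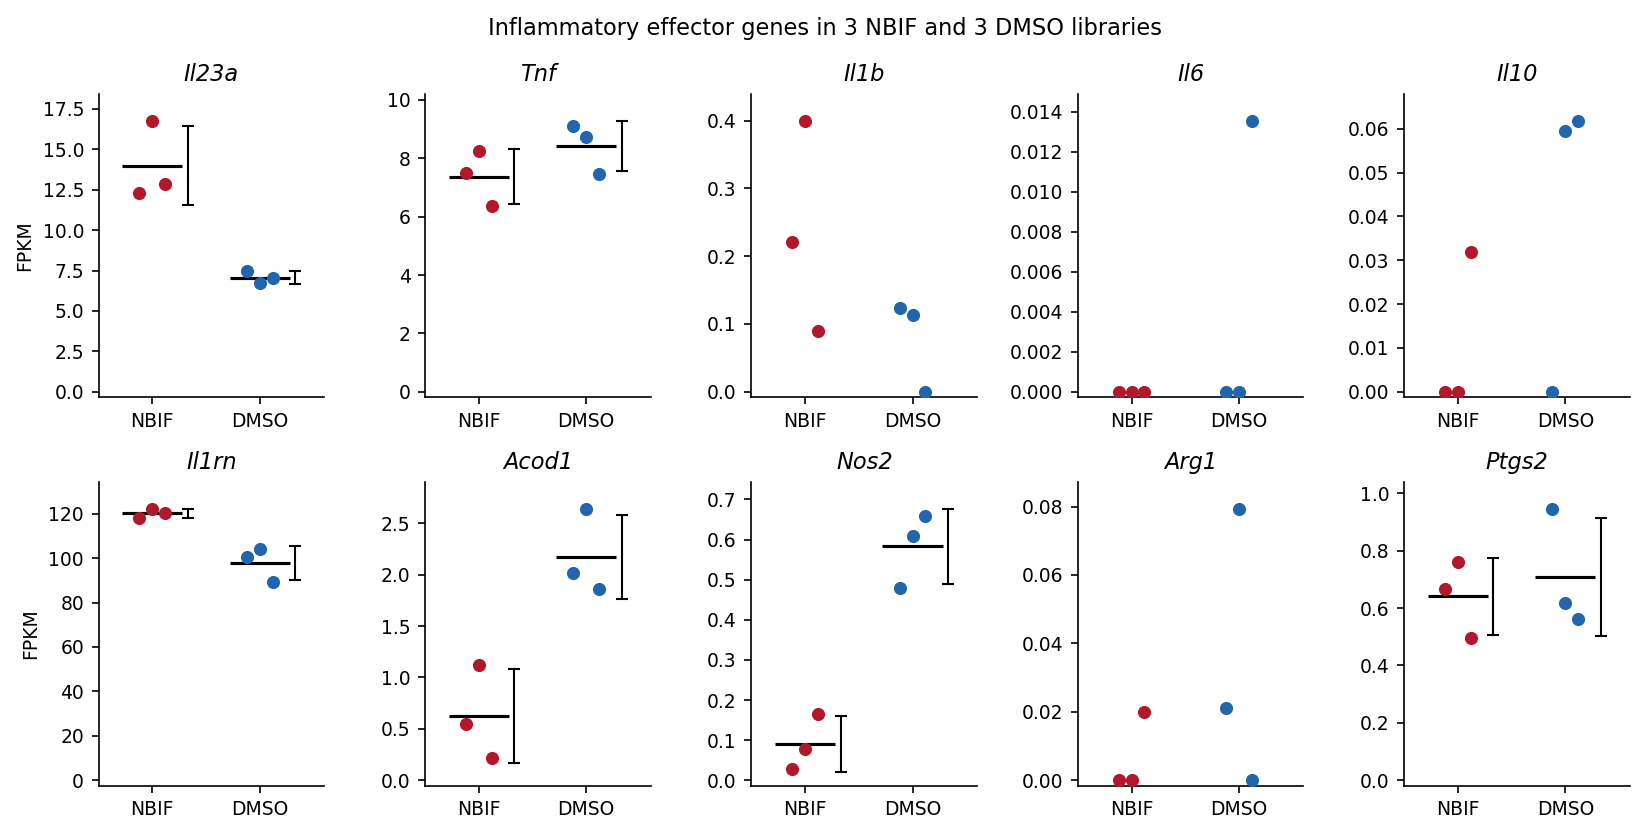
FPKM of each of the 10 genes (vertical axes, linear, a separate scale for each gene) in the 3 NBIF libraries (red) and the 3 DMSO libraries (blue). Points are libraries; horizontal bars are means and error bars are SD (n = 3), drawn only for genes above 0 in all 6 libraries. The groups do not overlap for Il23a, Il1rn, Acod1 and Nos2.

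Summed over genes, a sample held 484603 to 494172 FPKM, and 13073 to 13415 genes were above 0. On the log scale, libraries of a group correlated at 0.993 to 0.996 and those of different groups at 0.986 to 0.989. The absolute depth is unknown, and steps between low values put the depth at 0.886 (NBIF 2) to 1.09 (DMSO 2) times that of DMSO 1. Of the 8 macrophage markers listed, 7 averaged at least 1 FPKM, and the list summed to 1662 to 1689 FPKM in NBIF and 2028 to 2209 FPKM in DMSO. Among the 8 osteoclast markers 7 reached that level, with sums of 5677 to 6488 FPKM in NBIF and 7234 to 7884 FPKM in DMSO. Both marker sums were lower in each NBIF library than in any DMSO library, and their part in the results on the members was not tested. The osteoclast sum is mostly Atp6v0d2 (means of 3706 FPKM in NBIF and 4116 FPKM in DMSO) and Ctsk (1992 and 2656 FPKM). Within the lists, Csf1r, Cd68, Cd14, Itgam, Fcgr1, Ptprc, Acp5, Ctsk and Ocstamp passed as lower with NBIF. Spi1, Atp6v0d2, Dcstamp, Itgb3 and Oscar did not pass (limma adjusted p = 0.157, 0.111, 0.118, 0.407 and 0.870). Mertk and Calcr averaged under 1 FPKM. Fewer cells of a type and less RNA per cell cannot be told apart in such samples. No listed marker of neutrophils, T cells, B cells, stromal cells, mast cells or endothelium averaged 1 FPKM, no such list summed to more than 0.512 FPKM in a library, and Elane, S100a9, Ltf, Cd8a, Ms4a1, Mcpt4 and Ms4a2 were at 0 throughout.

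Il23a encodes the p19 subunit of IL-23, a cytokine that sustains inflammatory T cells (chromosome 10, 128296139 to 128298752, minus strand, in the GRCm38 annotation). Its level was 12.3, 16.8 and 12.9 FPKM in NBIF 1 to 3, against 7.49, 6.70 and 7.01 FPKM in DMSO 1 to 3. The lowest NBIF library was well above the highest DMSO library, and the NBIF libraries were the more scattered. The mean was 14.0 ± 2.44 FPKM in NBIF and 7.07 ± 0.396 FPKM in DMSO (SD, n = 3 each), a ratio of 1.98. The log2 change was 0.88 ± 0.11 (SE; limma adjusted p = 0.00107), larger in size than that of 99.0% of tested genes. IL-23 is secreted as a pair of p19 with p40, the product of Il12b, and Il12b was listed at 0 in all 6 libraries. Il12a, which encodes the p35 partner of p40 in IL-12, was also listed at 0 in all 6. Ebi3, the partner subunit in IL-27, had 9.81 ± 0.227 FPKM in NBIF and 8.65 ± 0.553 FPKM in DMSO and did not pass (limma adjusted p = 0.113), and Il27, which encodes the other subunit, averaged 0.0361 and 0.0834 FPKM in NBIF and DMSO. Il23a was thus the 1 member of this 5-gene subunit list past the threshold, with 2 genes tested. The receptor subunit gene Il23r was at 0 in all 6 libraries, while Il12rb1, which encodes the subunit shared with the IL-12 receptor, had 8.18 ± 1.33 FPKM in NBIF and 7.90 ± 0.886 FPKM in DMSO (adjusted p = 0.839).

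Tnf encodes tumour necrosis factor, which acts with RANKL on osteoclast precursors (chromosome 17, 35199381 to 35202007, minus strand). It had 7.51, 8.24 and 6.36 FPKM in NBIF 1 to 3, against 9.11, 8.72 and 7.46 FPKM in DMSO 1 to 3. The ranges overlapped, since NBIF 1 and NBIF 2 lay above DMSO 3. The mean was 7.37 ± 0.944 FPKM in NBIF and 8.43 ± 0.862 FPKM in DMSO (SD, n = 3 each), and the log2 change of -0.17 (95% interval -0.40 to 0.06) did not pass (limma adjusted p = 0.269). The ratio of the Il23a level to the Tnf level in the same library was 1.64, 2.04 and 2.02 in NBIF 1 to 3 and 0.822, 0.768 and 0.940 in DMSO 1 to 3. Il23a stood above Tnf in each NBIF library and below it in each DMSO library.

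Il1b encodes IL-1 beta (chromosome 2, 129364570 to 129371139, minus strand). Its level was 0.221, 0.400 and 0.0892 FPKM in NBIF 1 to 3, against 0.123, 0.114 and 0 FPKM in DMSO 1 to 3. The groups overlapped through NBIF 3 (two-sided exact permutation test of the means, p = 0.3, where the smallest p that 3 against 3 allows is 0.1). The annotated antisense gene Il1bos shares exon bases with it, and without a stated strand setting their reads cannot be told apart. Il6, on chromosome 5, was at 0 in 5 libraries and at 0.0136 FPKM in DMSO 3. Il10, on chromosome 1, had 0, 0 and 0.0318 FPKM in NBIF 1 to 3 and 0, 0.0595 and 0.0618 FPKM in DMSO 1 to 3 (exact permutation p = 0.4). At such levels a value may rest on very few reads, and no difference in Il6 or Il10 was detectable.

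Il1rn encodes the IL-1 receptor antagonist, which occupies the IL-1 receptor without signalling (chromosome 2, 24336853 to 24351494, plus strand). It was by far the most abundant member, above 92.3% of tested genes. Its level was 118, 122 and 120.3 FPKM in NBIF 1 to 3, against 100.4, 104 and 89.1 FPKM in DMSO 1 to 3. The NBIF libraries were tightly grouped and lay above each DMSO library. The mean was 120.1 ± 1.94 FPKM in NBIF and 97.8 ± 7.80 FPKM in DMSO (SD, n = 3 each), a ratio of 1.23, with a log2 change of 0.30 with an SE of 0.06 (limma adjusted p = 0.0122). In the libraries where Il1b was above 0, the Il1rn level was 535, 305 and 1349 times that of Il1b in NBIF 1 to 3 and 815 and 915 times in DMSO 1 and DMSO 2. These ratios overlapped between the groups and follow the scatter of the low Il1b values. RefSeq gives 3 start sites for Il1rn, whose transcripts are summed in a gene level.

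Acod1 encodes aconitate decarboxylase, whose product itaconate inhibits succinate dehydrogenase and can modify KEAP1, the inhibitor of NRF2 (chromosome 14, 103046977 to 103056573, plus strand). It had 0.550, 1.12 and 0.216 FPKM in NBIF 1 to 3, against 2.02, 2.64 and 1.86 FPKM in DMSO 1 to 3. The highest NBIF library stayed below the lowest DMSO library, and the NBIF libraries differed several-fold among themselves. The mean was 0.629 ± 0.457 FPKM in NBIF and 2.17 ± 0.410 FPKM in DMSO (SD, n = 3 each), a ratio of 0.290. The log2 change was -0.99 ± 0.19 (SE; limma adjusted p = 0.00884). Acod1 passed the filter of a mean of 1 FPKM over all 6 libraries only through the DMSO libraries; in the fit without that filter the adjusted p was 0.0357. Because the gene is low, the size depends on the pseudocount: with 0.1 in place of 1 the log2 change was -1.83, with 5 it was -0.35, and both passed.

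Nos2 encodes inducible nitric oxide synthase (chromosome 11, 78920787 to 78960254, plus strand). Its level was 0.0285, 0.0784 and 0.165 FPKM in NBIF 1 to 3, against 0.479, 0.609 and 0.660 FPKM in DMSO 1 to 3. The highest NBIF library was below the lowest DMSO library. The mean was 0.0905 ± 0.0688 FPKM in NBIF and 0.583 ± 0.0931 FPKM in DMSO (SD, n = 3 each), a ratio of 0.155. It was the 1 of the 6 members below 1 FPKM whose groups did not overlap, where 12.3% of all such genes above 0 in a sample did not overlap and 6.24% were lower with NBIF. The two-sided exact permutation test gave p = 0.1, the smallest possible. When limma was run on all 15148 genes above 0 in a sample, the log2 change was -0.54 with an adjusted p of 0.00541. In that fit 9.88% of genes passed, and 3.57% of those with a mean under 1 FPKM. Arg1, on chromosome 10, which encodes the cytosolic arginase often used as a marker of alternatively activated macrophages, had 0, 0 and 0.0200 FPKM in NBIF 1 to 3 and 0.0212, 0.0793 and 0 FPKM in DMSO 1 to 3. These groups overlapped (exact permutation p = 0.4), and Arg1 was at or near 0 in each library.

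Ptgs2 encodes the inducible cyclooxygenase (chromosome 1, 150100031 to 150108227, plus strand). It had 0.665, 0.761 and 0.497 FPKM in NBIF 1 to 3, against 0.945, 0.619 and 0.560 FPKM in DMSO 1 to 3. The ranges overlapped, with means of 0.641 ± 0.134 FPKM in NBIF and 0.708 ± 0.207 FPKM in DMSO (SD, n = 3 each; exact permutation p = 0.7). Of the 4 tested members, the groups did not overlap for Il23a, Il1rn and Acod1, against 39.0% of tested genes. Acod1 was tested only through its level in DMSO, and the members were chosen with earlier results known. In NBIF the levels ran from Il1rn through Il23a and Tnf to Ptgs2, each separated from the next, and from Ptgs2 down each neighbour overlapped the next in range. In DMSO Il1rn also led, but Tnf and Il23a overlapped, and Acod1 (2.17 FPKM) stood apart between Il23a and Ptgs2. Ptgs2 and Nos2 overlapped in DMSO, and Nos2 lay above Il1b there. FPKM corrects for gene length, but the sources used here do not give the lengths.

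**Figure D2:**
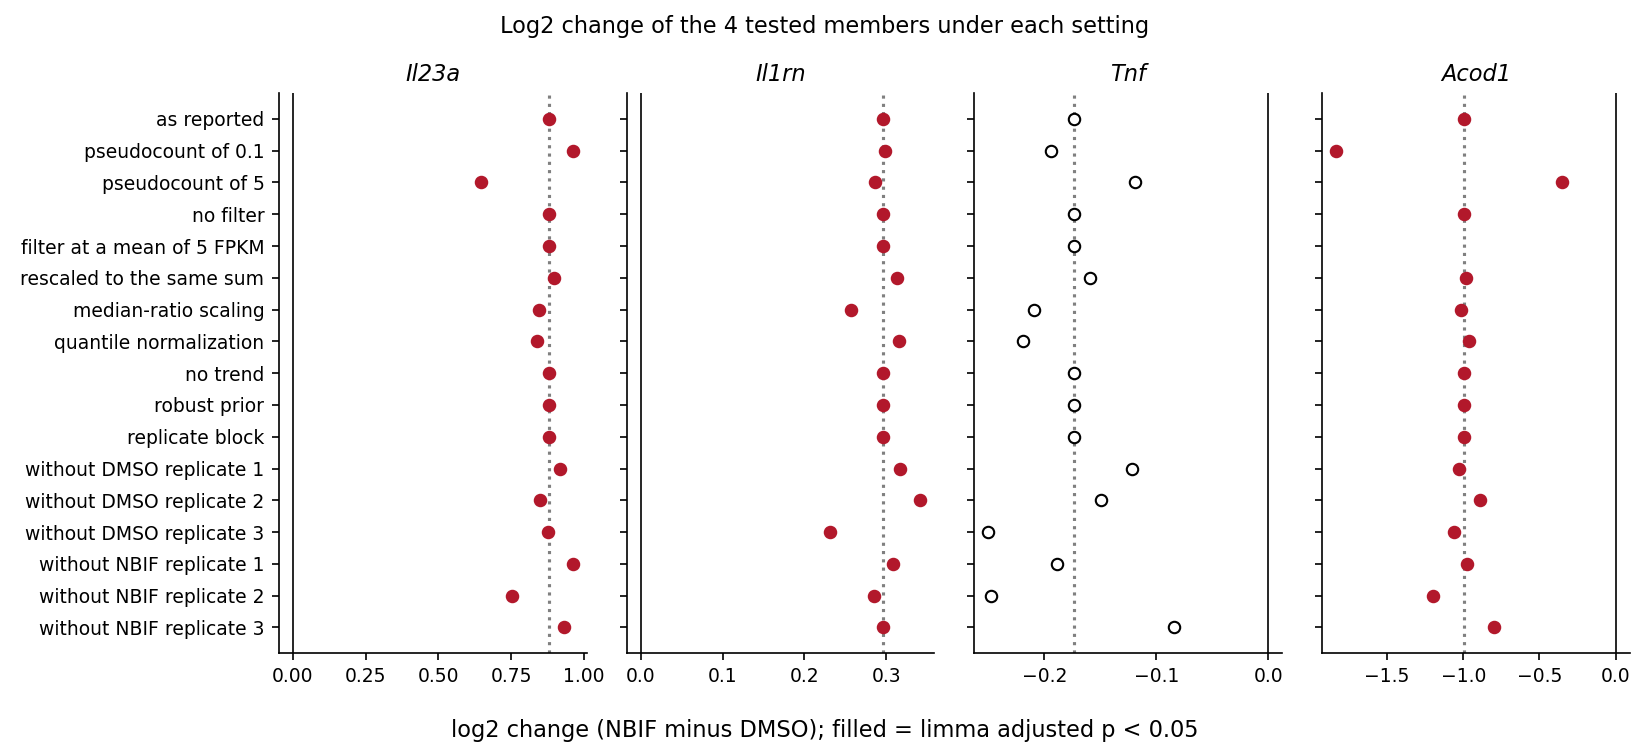
Log2 change (horizontal axis, NBIF minus DMSO, a separate scale for each gene) of the 4 tested members under each setting of the test (rows). Filled points have a limma adjusted p under 0.05, and dotted lines mark the reported value. Il23a and Il1rn stay above 0 and Acod1 below 0 with the test passed in each setting shown. Tnf stays below 0 and does not pass. Acod1 has no value with a filter at 5 FPKM. Except without a filter, Acod1 was tested only through its DMSO level.

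The sequences just before the start sites are shown for the 3 tested members that RefSeq's promoter table (GRCm38.p6) holds. Their calls differed: Il1rn passed as higher, Acod1 passed as lower and Tnf did not pass. Whether the changes of these members differ from each other was not tested. For Il1rn the first of the 3 start sites is used. Each run is the 250 bases before the RefSeq start in the 5′ to 3′ direction of the gene. Capitals mark matches to 3 motifs searched on both strands. The TATA box, which places the start of transcription, was searched as TATAAA. The site of AP-1, the dimer of Fos and Jun proteins, was searched as TGANTCA. The core of sites of PU.1, a transcription factor of macrophages and osteoclasts, was searched as GAGGAA.
Il1rn, chr2:24336610-24336859, plus strand: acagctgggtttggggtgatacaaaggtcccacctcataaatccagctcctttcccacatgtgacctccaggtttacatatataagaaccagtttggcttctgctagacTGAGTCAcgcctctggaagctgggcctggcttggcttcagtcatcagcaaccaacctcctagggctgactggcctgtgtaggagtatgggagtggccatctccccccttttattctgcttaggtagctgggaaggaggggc
Acod1, chr14:103046762-103047011, plus strand: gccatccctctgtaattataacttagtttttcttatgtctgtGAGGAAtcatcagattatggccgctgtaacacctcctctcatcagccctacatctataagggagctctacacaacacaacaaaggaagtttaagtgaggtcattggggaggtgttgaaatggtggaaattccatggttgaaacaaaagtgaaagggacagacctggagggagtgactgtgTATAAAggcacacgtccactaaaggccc
Tnf, chr17:35202008-35202257, minus strand: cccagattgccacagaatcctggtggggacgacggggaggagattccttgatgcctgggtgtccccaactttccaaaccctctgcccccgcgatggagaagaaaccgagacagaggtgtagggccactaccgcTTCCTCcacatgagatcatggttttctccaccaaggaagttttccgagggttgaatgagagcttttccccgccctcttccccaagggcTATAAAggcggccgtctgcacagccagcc
The Acod1 and Tnf windows hold TATAAA 28 and 29 bases before the start, which 12.4% of the 32851 windows in the table hold somewhere in the same 250 bases. The printed Il1rn window holds TGANTCA 141 bases before the start and neither of the other motifs. TGANTCA is in 6.75% of all windows. The windows of the other Il1rn start sites hold none of the 3 motifs, and which start these cells use was not measured. The PU.1 core GAGGAA begins 208 bases before the start of Acod1, lies on the other strand 117 to 112 bases before that of Tnf, and is in 23.3% of all windows. The matches do not overlap each other. Such matches are letters in a window and not measured binding sites.

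Genes around the members were followed in 8 lists covering receptors, processing, regulators and metabolic partners. Of 86 tested genes in them, Il23a included, 10 rose, 13 fell and 63 did not pass. Among all 9936 tested genes, 10.5% rose and 8.08% fell, 18.6% in all. The median log2 change of the list genes was 0.03 against 0.04 for all tested genes. The lists were chosen with earlier results of these data known, and no set test was run.

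**Figure D3:**
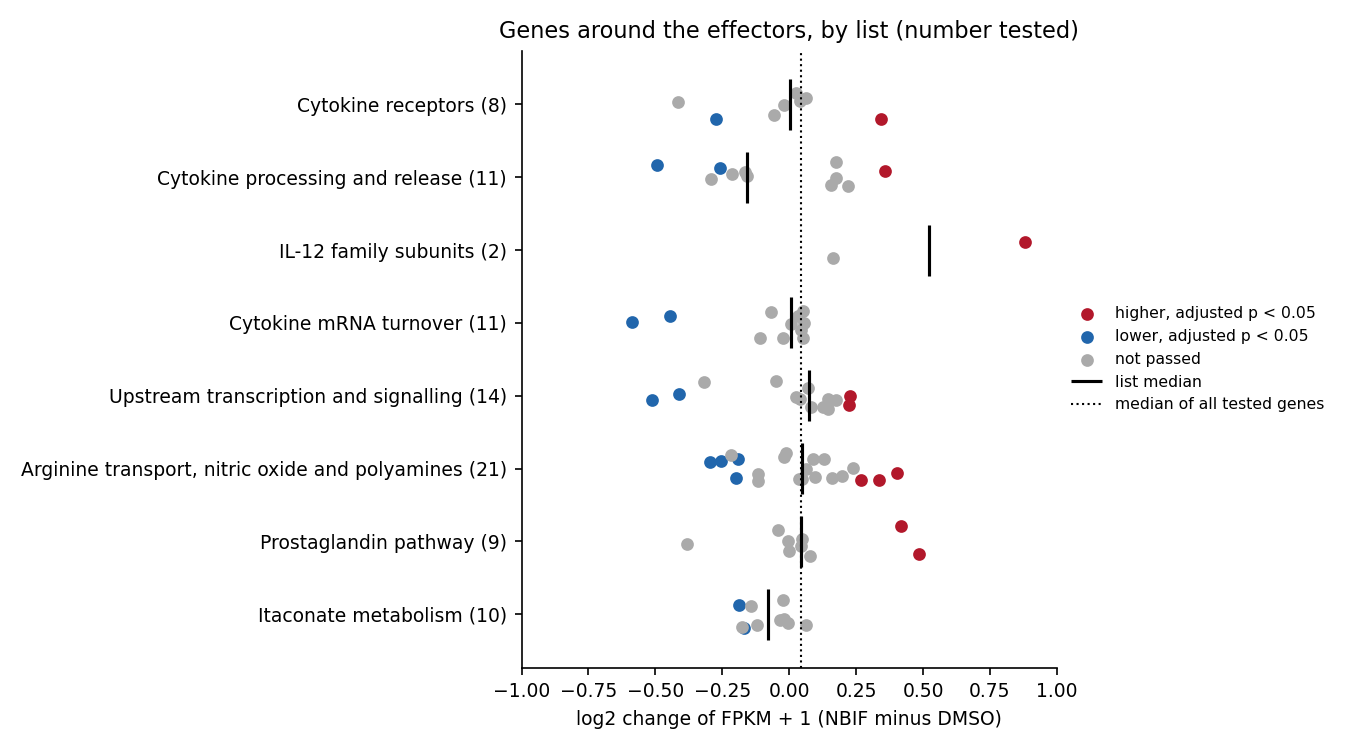
Log2 change of FPKM + 1 (horizontal axis, NBIF minus DMSO) of each tested gene in 8 lists (rows, number tested in brackets); points are genes, coloured by the limma call, solid lines are list medians, and the dotted line is the median of all tested genes. Il23a, at 0.88, lies farthest from 0 of the genes shown, and most genes lie within 0.3 of 0.

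Among 8 tested cytokine receptor genes, 1 rose, 1 fell and 6 did not pass (median log2 change 0.00224). Tnfrsf1b, which encodes the TNF receptor of immune cells, rose to 10.4 ± 0.303 FPKM in NBIF, against 8.03 ± 0.632 FPKM in DMSO (log2 change 0.34, limma adjusted p = 0.0115). Tnfrsf1a, the broadly expressed TNF receptor, had 18.5 ± 0.806 FPKM in NBIF and 18.8 ± 0.629 FPKM in DMSO (adjusted p = 0.841). Il6ra, the ligand-binding IL-6 receptor, fell to 10.4 ± 0.394 FPKM in NBIF, against 12.8 ± 1.15 FPKM in DMSO (log2 change -0.27, adjusted p = 0.0349). That call was lost without DMSO 1, DMSO 3, NBIF 1, NBIF 2 or NBIF 3 and without a filter on low values. Il10ra, the ligand-binding IL-10 receptor, had 0.790, 1.45 and 1.25 FPKM in NBIF 1 to 3 and 1.85, 2.11 and 1.66 FPKM in DMSO 1 to 3; these groups did not overlap, and the adjusted p was 0.0509. The signalling IL-1 receptor gene Il1r1 averaged 0.00986 FPKM in NBIF and 0.00697 FPKM in DMSO, and the decoy receptor gene Il1r2 was also near 0.

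In the list on cytokine processing and release, 1 of 11 tested genes rose, 2 fell and 8 did not pass (median -0.16). Adam17, the protease that sheds TNF and its receptors from the cell surface, fell to 31.4, 29.1 and 29.8 FPKM in NBIF 1 to 3, against 44.7, 41.0 and 42.5 FPKM in DMSO 1 to 3. The groups were far apart relative to their spread (log2 change -0.49 ± 0.06 SE, adjusted p = 0.000676). Rhbdf2, which encodes the partner iRhom2 that brings ADAM17 to the surface, fell to 50.6 ± 2.90 FPKM in NBIF, against 60.6 ± 1.69 FPKM in DMSO (adjusted p = 0.0139); that call was lost without DMSO 1, NBIF 1 or NBIF 3. Aim2, a cytosolic DNA sensor that forms an inflammasome, rose to 28.8 ± 0.133 FPKM in NBIF, against 22.3 ± 1.74 FPKM in DMSO (adjusted p = 0.00638). Nlrp3, another inflammasome sensor, had 13.2 ± 0.485 FPKM in NBIF and 15.0 ± 0.604 FPKM in DMSO (adjusted p = 0.0839). Pycard, the inflammasome adaptor that RAW264.7 cells are known to lack, averaged 0.0378 FPKM in NBIF and 0.0648 FPKM in DMSO. Il1a, which encodes the other IL-1 agonist, had 1.56 ± 0.298 FPKM in NBIF and 2.14 ± 0.391 FPKM in DMSO (adjusted p = 0.128).

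Of 11 tested genes that control the decay or stability of cytokine mRNAs, 2 fell, 0 rose and 9 did not pass (median 0.00522); 1 passed without DMSO 1, without DMSO 2, without NBIF 1 and without NBIF 2. Zfp36 encodes tristetraprolin, which binds AU-rich elements and speeds the decay of the Tnf and Il23a mRNAs in mouse macrophages. It fell to 9.88, 9.40 and 8.15 FPKM in NBIF 1 to 3, against 13.9, 12.8 and 11.7 FPKM in DMSO 1 to 3 (log2 change -0.45 ± 0.09 SE, adjusted p = 0.00972). Its relative Zfp36l1 fell to 4.07 ± 0.793 FPKM in NBIF, against 6.62 ± 1.11 FPKM in DMSO (log2 change -0.59, adjusted p = 0.0197), a call lost without DMSO 1, DMSO 2, NBIF 1 or NBIF 2 and without a filter. With a pseudocount of 5 its log2 change was -0.36. The third family member, Zfp36l2, had 35.1 ± 0.728 FPKM in NBIF and 35.7 ± 0.885 FPKM in DMSO (adjusted p = 0.788).

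Of 14 tested upstream transcription and signalling genes, 2 rose, 2 fell and 10 did not pass (median 0.07). The 4 calls became 2 without DMSO 1, without DMSO 2, without NBIF 2 and without NBIF 3, and 6 without DMSO 3. Cebpb, a transcription factor of inflammatory macrophage genes, fell to 25.1, 28.3 and 24.9 FPKM in NBIF 1 to 3, against 40.3, 33.4 and 39.4 FPKM in DMSO 1 to 3 (log2 change -0.51 ± 0.08 SE, adjusted p = 0.00418). Irf8, an interferon regulatory factor that restrains osteoclast formation, fell to 5.39 ± 0.355 FPKM in NBIF, against 7.52 ± 0.775 FPKM in DMSO (log2 change -0.41, adjusted p = 0.0113; -0.27 with a pseudocount of 5). Tyk2, a kinase of the IL-23 receptor, rose by 0.23 on the log2 scale (adjusted p = 0.0313) and Stat3, which acts below the IL-6, IL-10 and IL-23 receptors, by 0.22 (adjusted p = 0.0285). Both calls were lost without DMSO 1, DMSO 2, NBIF 1, NBIF 2 or NBIF 3 and after median-ratio scaling. The call on Tyk2 was also lost without a filter and with the replicate number as a block, and that on Stat3 after quantile normalization.

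Of 21 tested genes of arginine transport, nitric oxide and polyamines, 3 rose, 4 fell and 14 did not pass (median 0.05). The 7 calls became 4 without DMSO 1, 3 without NBIF 2 and 3 without NBIF 3. Gch1, the rate-limiting enzyme of tetrahydrobiopterin synthesis, a cofactor of nitric oxide synthases, rose to 15.4 ± 1.32 FPKM in NBIF, against 11.4 ± 1.33 FPKM in DMSO (log2 change 0.40, adjusted p = 0.0198), a call lost without DMSO 1, NBIF 2 or NBIF 3 and without a filter. Qdpr, which regenerates that cofactor, fell to 27.8 ± 1.37 FPKM in NBIF, against 34.4 ± 1.49 FPKM in DMSO (adjusted p = 0.0101). Srm, which makes spermidine, rose to 175 ± 1.56 FPKM in NBIF, against 139 ± 10.1 FPKM in DMSO (adjusted p = 0.00487). Oat, which converts ornithine towards glutamate and proline, rose to 87.6 ± 2.79 FPKM in NBIF, against 72.6 ± 0.722 FPKM in DMSO (adjusted p = 0.00479). The other genes of the list that fell were the polyamine genes Oaz1, Oaz2 and Smox (limma adjusted p = 0.0265, 0.0174 and 0.0467). The arginine importer gene Slc7a1 had 48.1 ± 1.75 FPKM in NBIF and 46.0 ± 2.18 FPKM in DMSO (adjusted p = 0.450), and the mitochondrial arginase gene Arg2 had 1.46 ± 0.153 and 1.67 ± 0.168 FPKM in NBIF and DMSO (adjusted p = 0.384).

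Of 9 tested prostaglandin pathway genes, 2 rose, 0 fell and 7 did not pass (median 0.04). Hpgds, which makes prostaglandin D2, rose to 41.6, 44.6 and 42.7 FPKM in NBIF 1 to 3, against 31.2, 33.5 and 26.9 FPKM in DMSO 1 to 3 (log2 change 0.48 ± 0.08 SE, adjusted p = 0.00418). Abcc4, an efflux pump that also exports prostaglandins, rose to 8.59 ± 0.505 FPKM in NBIF, against 6.17 ± 0.269 FPKM in DMSO (log2 change 0.42, adjusted p = 0.00413). The constitutive cyclooxygenase gene Ptgs1 had 3.79 ± 1.12 FPKM in NBIF and 3.77 ± 1.03 FPKM in DMSO (adjusted p = 0.996).

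Of 10 tested genes of itaconate metabolism, 2 fell, 0 rose and 8 did not pass (median -0.08). Sdha, a subunit of succinate dehydrogenase, fell to 161 ± 3.93 FPKM in NBIF, against 184 ± 3.28 FPKM in DMSO (log2 change -0.19, adjusted p = 0.0158). The call on Sdha was lost without NBIF 1 or NBIF 3, and the list then had 0 calls; it had 1 call without DMSO 2, after quantile normalization or without a variance trend.

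**Figure D4:**
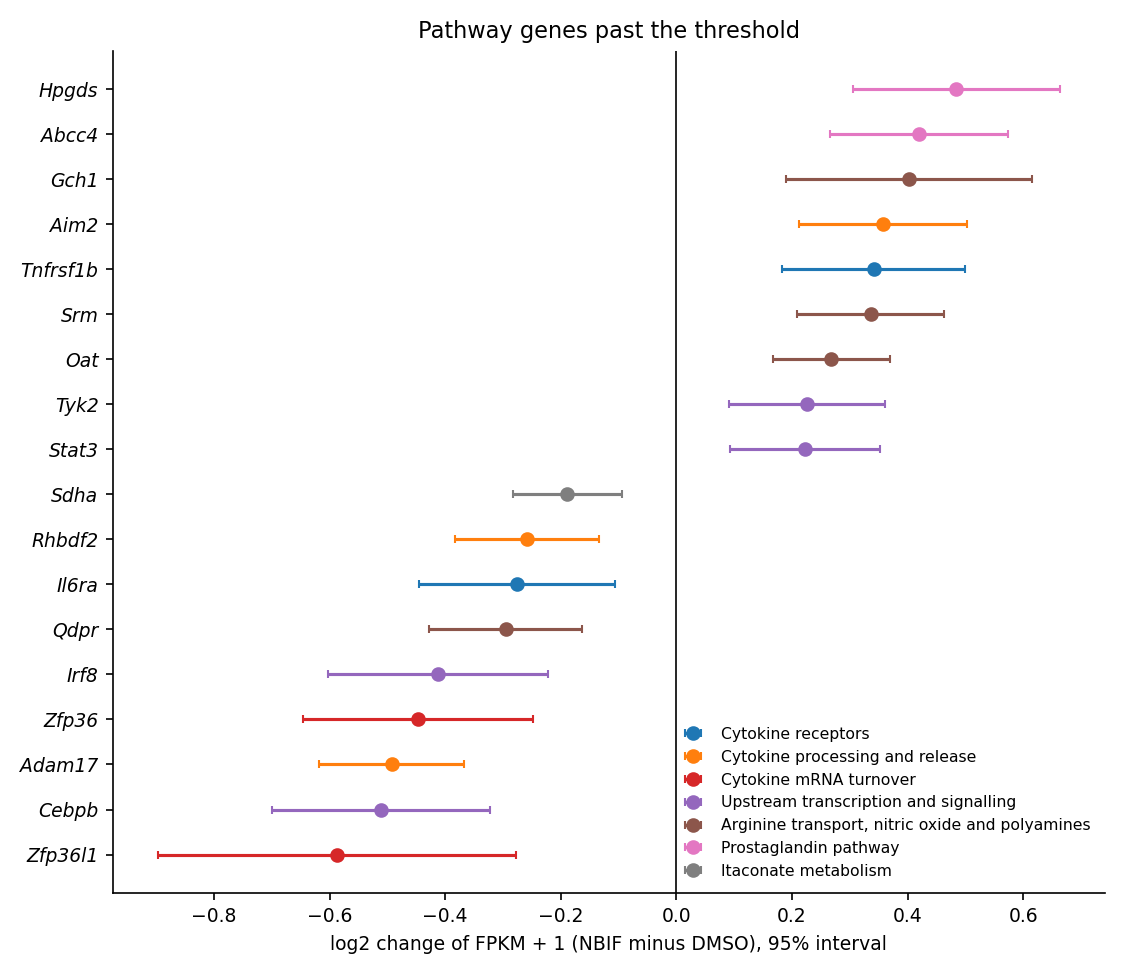
Log2 change of FPKM + 1 (horizontal axis, NBIF minus DMSO) with its 95% interval, for list genes named above that passed the test. Rows are genes, sorted and coloured by list (n = 3 per group). The member Il23a and the genes Oaz1, Oaz2 and Smox are not drawn. Of the genes drawn, Hpgds, at 0.48, is the highest and Zfp36l1, at -0.59, the lowest.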

How the data were processed

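The values are FPKM as deposited by the authors, in a single table of gene symbols by samples. Tools named in the submitters' processing notes, without roles, are DESeq2 1.20.0, featureCounts 1.5.0-p3, HISAT2 2.0.5, fastp and CASAVA 1.8. The notes also name the human build GRCh38, although 98.0% of the symbols are mouse gene names, so it is uncertain which genome was used. The sources used here do not give the annotation, gene lengths, strand setting or osteoclast-inducing agent. RNA was extracted with TRIzol, per the labels' protocols. Groups follow the treatment label, and replicate numbers the titles. No pair of samples in a group shared a nonzero value. FPKM values are not counts, so no count model was fitted, and each value depends on the sum over all genes.

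The two-sided limma test (version 3.58.1, R 4.3.3; eBayes with a trend) was run on log2(FPKM + 1) for the 9936 genes averaging at least 1 FPKM, with Benjamini-Hochberg adjustment over them. The pseudocount makes folds of low genes too small; ratios of means carry none. Members below the filter were compared by an exact permutation test over 20 assignments. How often the limma test misses a change of a given size in these data was not tested.

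The members and lists were chosen with earlier results of these data known. All 10 members are named. From each list up to 4 passing genes with the largest change are named, or the 2 most abundant where none passed. Other list genes named were chosen after their values were seen. They are Tnfrsf1a, Il10ra, Il1r1, Il1r2, Il23r, Il12rb1, Nlrp3, Pycard, Il1a, Zfp36l2, Slc7a1, Arg2, Ptgs1, Ebi3, Il27, Il12a, Il12b, Oaz1, Oaz2 and Smox. Positions come from GENCODE M21 (GRCm38) and promoter sequences from RefSeq (GRCm38.p6), both matched by symbol; the promoter table held 6 of the 10 members. The RefSeq starts used for Acod1 and Il1rn lie downstream of the GENCODE gene starts, so the ends of these windows fall inside the GENCODE genes. Not every list gene that the rule names is reported here.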

Additional observations from a re-analysis of the deposited data

How the results depend on the processing

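Il23a, Il1rn and Acod1 kept their direction and passed the test under each alternative that gave a value, namely pseudocounts of 5 and 0.1, a filter at 5 FPKM (which leaves out Acod1) or none, 3 other scalings, 2 other variance priors, the replicate block, and dropping any 1 sample. Their limma adjusted p ranged from 0.000424 to 0.00922 for Il23a, 0.00798 to 0.0450 for Il1rn and 0.00135 to 0.0357 for Acod1. Acod1 entered these fits only through its DMSO level, except the fit without a filter, where its adjusted p was 0.0357. Tnf stayed lower and did not pass (0.126 to 0.610). The number of members that passed was 2 to 4, the fourth being Nos2 without a filter. Of 20 list genes taken by the rule, the member Il23a included, 12 kept their call under each alternative and 0 changed direction.

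Leaving out 1 sample put the number of changed genes between 999 and 1891, with 493 to 1066 higher and 506 to 825 lower. The share of changed genes that were higher was 56.6%, and 41.3% after median-ratio scaling. The labels name no block, so the replicate numbers entered only as an alternative. Deviations from the group mean correlated between same-numbered samples at 0.0784, 0.126 and 0.0355. Without the same values for differently numbered samples, these do not settle whether the samples were paired. With the replicate block 1632 genes and 3 members passed. The unknown depth limits Il1b, Il6, Il10 and Arg1, and the low NBIF values of Nos2 and Acod1, where a few reads may decide a value.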
